A study of Arabidopsis thaliana with 8 samples.

Results

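The comparison set the seedlings labelled *AtRH17* OX against those labelled *HRE1β* OX and asked what separates these overexpressors across all genes, with no wild type in the contrast. It was defined by the sample labels alone and holds 4 of the 8 libraries of the series, 2 from each line. All plants were *Arabidopsis thaliana* of the Col-0 ecotype, harvested as whole seedlings at 14 days after germination according to the labels (the methods of the study give 10 days). They were grown without treatment at 22 °C in short days of 8 h light and 16 h dark. The other libraries were 2 of WT and 2 of *HRE1α* OX, which lent their spread to the statistical fit and are given as levels for orientation. RNA was measured by QuantSeq, an oligo-dT method whose reads come from transcript 3′ ends, and the deposited values were counts per gene.

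*HRE1*, also named *ERF73*, encodes a group VII ethylene response factor. Members of this group switch on genes for fermentation and oxygen sensing when oxygen runs low, and most of them are broken down through the N-degron pathway when oxygen is present. HRE1β is the splice form that carries the N-degron sequence. AtRH17 belongs to the DEAD-box helicases, proteins that unwind RNA at the expense of ATP. The *HRE1β* OX plants carried the open reading frame of *HRE1β* in a kanamycin-selected binary vector and were homozygous in the T3 or T4 generation. How many independent lines stand behind the libraries of either overexpressor was not stated, and the methods of the study describe no *AtRH17* construct. A difference that belongs to 1 insertion or 1 line therefore cannot be told apart from an effect of the transgene. In such whole-seedling RNA, fewer cells of a type and less RNA per cell cannot be told apart either.

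Neither gene was higher by its 3′ counts in the libraries that bear its label. AT2G40700, the locus taken here as *AtRH17* from general knowledge (the annotation calls it only a P-loop nucleoside triphosphate hydrolase), spans bases 16976636 to 16979650 of chromosome 2 (forward strand). Its level was 5.07 and 5.05 CPM (counts scaled to the size of each library) under the *AtRH17* OX label and 9.17 and 9.30 CPM under the *HRE1β* OX label. It fell by 0.87 on the log2 scale (SE 0.18, adjusted p = 0.0014 by edgeR's quasi-likelihood test), with WT at 9.21 and 8.27 CPM. *HRE1* had 33.9 and 34.3 CPM under the *HRE1β* OX label, 43.4 and 35.7 CPM under the *AtRH17* OX label and 49.8 and 38.1 CPM in WT. That difference between the overexpressors did not pass the test (log2 fold change 0.22, SE 0.12, adjusted p = 0.249). Under the *HRE1α* OX label it reached 169 and 195 CPM. A 3′ read outside a transgene that holds only an open reading frame does not measure it, and whether the reads covered the transgenes was not tested. The lines are therefore called the *AtRH17*-labelled and the *HRE1β*-labelled libraries, and every direction below is that of the labels.

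The totals of the 4 libraries lay between 25657217 and 30606058 counts, and 3 counts corresponded to 0.098 to 0.117 CPM. The replicates of each line correlated across genes at r = 0.993 (*HRE1β*-labelled) and 0.992 (*AtRH17*-labelled), and counts differed between replicates beyond sampling noise for 34.2% and 34.7% of the genes, so no library was a copy of another. Whether replicates came from separate plates or plants was not stated, so the p-values measure only the spread between these samples. The first principal component of the 8 libraries (50.6% of the variance) set WT and the *HRE1α*-labelled libraries apart from both lines compared here. The second (18.6%) set the *HRE1β*-labelled libraries, at -25.5 and -23.9, apart from the *AtRH17*-labelled ones, at 15.8 and 21.9. Shoot markers such as *RBCS1A* summed to 30414 and 33293 CPM in the *HRE1β*-labelled and to 33647 and 34594 CPM in the *AtRH17*-labelled libraries. Root markers summed to 393 and 378 CPM against 470.4 and 473.1 CPM, and the defining genes of both organs were detected in every library. The root markers did not move together. Of 16 tested, 2 were higher and 3 lower in the *AtRH17*-labelled libraries at an adjusted p under 0.05 (7.42% and 6.45% of all genes), and 11 did not pass. The root marker *PRP1* was lower past 2-fold (log2 fold change -1.10). Its call was lost without replicate 1 of the *HRE1β*-labelled or of the *AtRH17*-labelled libraries (log2 fold changes -0.91 and -0.55). Of 10 shoot markers 2 were higher and 0 lower.

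Of 22602 genes tested, 203 were higher in the *AtRH17*-labelled libraries at 2-fold and an adjusted p under 0.05 (0.898% of the genes tested), and 214 were lower (0.947%). The genes called higher had a median change of 2.49-fold and those called lower of 3.07-fold. Past 4-fold, 46 were higher and 81 lower. Without the fold threshold, 1678 genes (7.42%) were higher and 1457 (6.45%) lower. With an unadjusted p at 2-fold the counts were 341 higher and 366 lower. The median change over all genes was -0.01 on the log2 scale. Of the 417 genes called at 2-fold, 73 had a mean under 1 CPM over the 4 libraries and 1 had libraries that overlapped between the lines. Leaving out *AtRH17*-labelled replicate 2 lowered the counts to 114 higher and 135 lower.

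**Figure D1:**
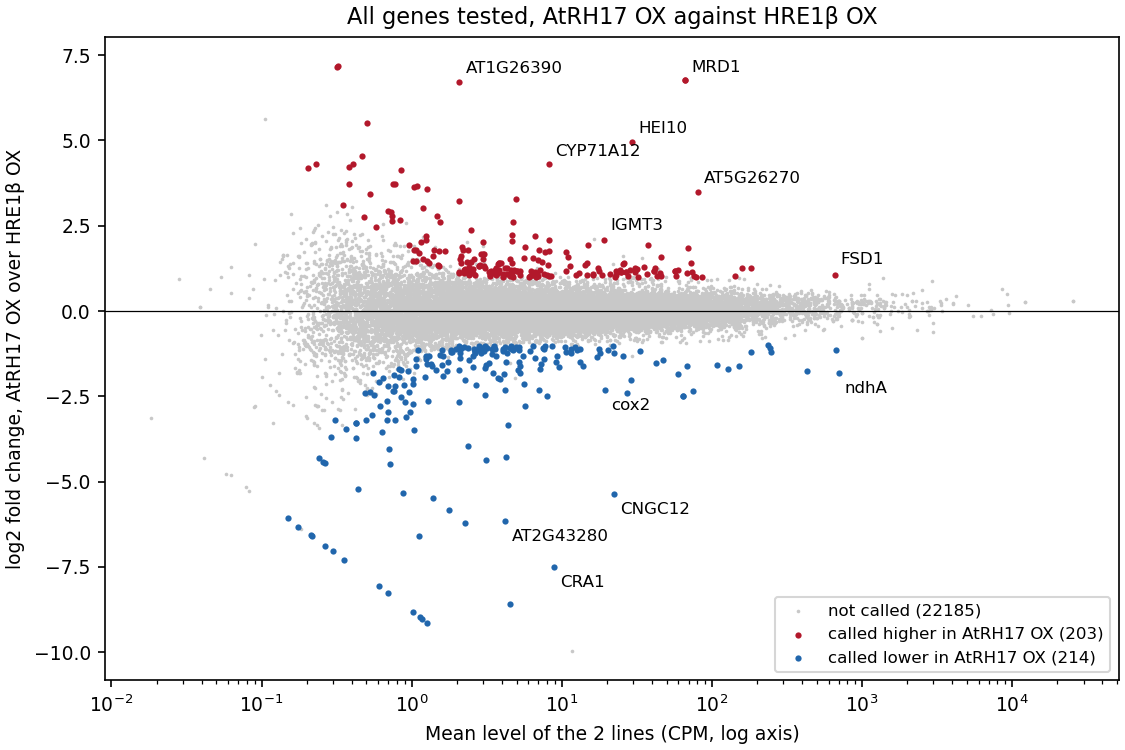
Each point is 1 of the genes tested, with its mean level in the 2 lines (CPM, log axis) against the log2 fold change of the *AtRH17*-labelled over the *HRE1β*-labelled libraries. Red points (203) were called higher, blue points (214) lower and grey points not called; the cloud of grey points is centred near 0 and the largest falls lie at low levels.

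One of the widest gaps lay at the *HEI10* locus on chromosome 1. *HEI10* (AT1G53490, chromosome 1 from 19963267 to 19966952, forward strand) encodes a RING-type ubiquitin ligase known for its role in meiotic crossing over. It stood at 1.81 and 1.85 CPM in the *HRE1β*-labelled libraries and at 56.1 and 58.0 CPM in the *AtRH17*-labelled ones. That is 31.1-fold higher (log2 fold change 4.96, SE 0.15, adjusted p = 1.4e-20). WT, at 46.1 and 40.4 CPM, lay near the *AtRH17*-labelled level, and the *HRE1α*-labelled libraries, at 1.49 and 1.77 CPM, lay near the *HRE1β*-labelled level. *MRD1*, on the opposite strand from 19963047 to 19964712, moved with it, from 1.96 and 0.519 CPM to 135 and 128 CPM (log2 fold change 6.77, SE 0.36, adjusted p = 0.00016). *MRD1* and *HEI10* share 1446 bases of the annotation, and the non-coding AT1G07887 lies inside *MRD1* on the other strand and had counts within 5% of it in all 4 libraries. The use of strand in the counting was not stated, so reads of *MRD1* and AT1G07887 cannot be told apart, and reads from the shared bases could also have counted for *HEI10*.

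The same kind of gap in the other direction was found at *CNGC12* (AT2G46450, chromosome 2 from 19065536 to 19069569, forward strand), a cyclic nucleotide-gated cation channel known from plant defence. Its level was 41.5 and 45.5 CPM in the *HRE1β*-labelled and 1.09 and 1.02 CPM in the *AtRH17*-labelled libraries, a fall by 5.36 on the log2 scale (SE 0.17, adjusted p = 1.6e-20). WT lay between the lines at 15.0 and 18.0 CPM, and the *HRE1α*-labelled libraries stood at 48.3 and 47.3 CPM. Its neighbour *CNGC11*, from 19061688 to 19064937, had 36 and 31 counts in the *HRE1β*-labelled libraries and 2 and 3 in the *AtRH17*-labelled ones. The ratio of the summed counts, scaled to the summed library sizes, was 12.3, with a 95% exact interval for counting error alone of 5 to 39.0. AT2G43280, a FAR1 family gene on the same chromosome from 17989602 to 17991022, had 7.98 and 8.69 CPM against 0.211 and 0 CPM (log2 fold change -6.15, SE 0.44, adjusted p = 6.5e-11). In WT it stood at 3.77 and 5.54 CPM, and in the *HRE1α*-labelled libraries at 10.2 and 8.29 CPM.

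AT5G26270, an uncharacterized protein gene on chromosome 5 from 9206375 to 9208136, had WT between the lines. It was at 11.9 and 14.3 CPM in the *HRE1β*-labelled, at 60.0 and 62.4 CPM in WT and at 130.0 and 166 CPM in the *AtRH17*-labelled libraries. The gap between the overexpressors was 11.2-fold (log2 fold change 3.49, SE 0.12, adjusted p = 3.7e-18). The groups did not overlap for any of these loci, and *HEI10*, *MRD1*, *CNGC12*, AT2G43280 and AT5G26270 kept their call in each of the 4 fits that left out 1 library.

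**Figure D2:**
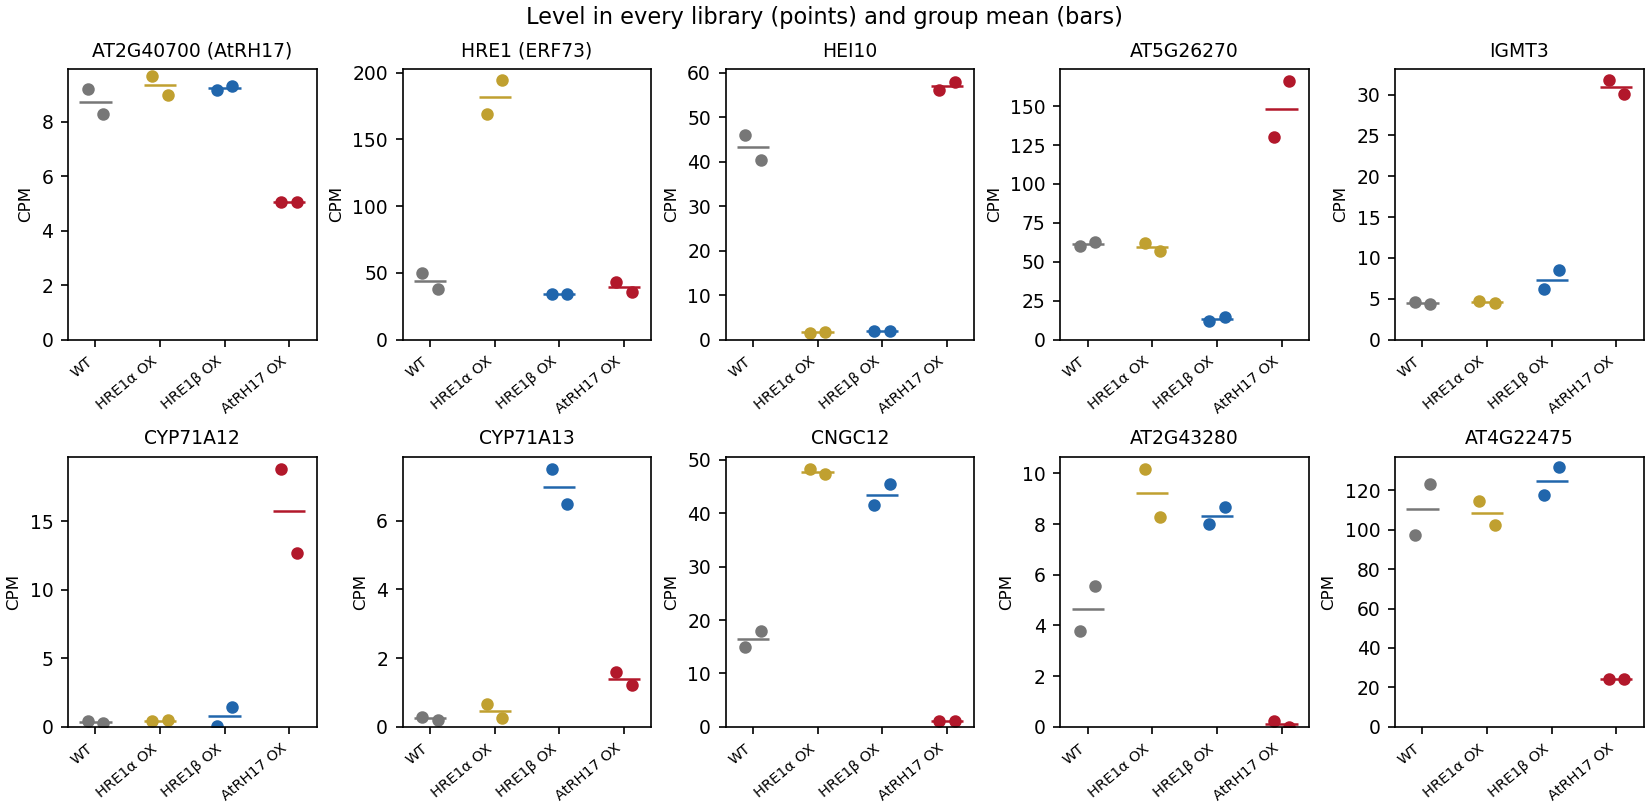
Points give the level of 10 genes (CPM, linear axis from 0) in each of the 8 libraries, and bars the mean of each group. *HEI10* sat at 56.1 and 58.0 CPM in the *AtRH17*-labelled against 1.81 and 1.85 CPM in the *HRE1β*-labelled libraries, and *CNGC12* and AT4G22475 showed the opposite order, while AT2G40700 was lowest in the libraries that bear its label.

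On chromosome 4, 8 neighbouring genes between 11844242 and 11857417 were all lower in the *AtRH17*-labelled libraries. Most of those with an annotated product belong to the bifunctional inhibitor, lipid-transfer protein and 2S albumin superfamily, small secreted proteins that bind lipids. AT4G22475 stood at 117 and 132 CPM in the *HRE1β*-labelled and at 24.3 and 24.3 CPM in the *AtRH17*-labelled libraries, 5.13-fold lower (log2 fold change -2.36, SE 0.11, adjusted p = 1.9e-15). WT was at 97.5 and 123 CPM. AT4G22490, which overlaps none of the others, went from 213 and 243 CPM to 72.1 and 78.2 CPM (log2 fold change -1.60, SE 0.09, adjusted p = 6.2e-14). At the far end AT4G22517 went from 85.2 and 102 CPM to 26 and 26.53 CPM, 3.56-fold lower. Changes of the 8 genes lay between -2.49 (AT4G22495 and AT4G22505) and -1.60 on the log2 scale. AT4G22495 and AT4G22505 lie on opposite strands, share 1864 bases and had identical counts. AT4G22475 and AT4G22485 share 1971 bases on opposite strands, and AT4G22513 and AT4G22517 lie within AT4G22510 on the other strand, so the 8 genes stand for about 4 separate measurements.

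Several of the genes with large changes belong to indole-derived defence metabolism, and they are set side by side here after their values were seen. In Arabidopsis, *CYP71A12* and *CYP71A13* turn indole-3-acetaldoxime into indole-3-acetonitrile on the way to camalexin and related compounds. *CYP71A12* was at 0.0739 and 1.46 CPM in the *HRE1β*-labelled and at 18.8 and 12.7 CPM in the *AtRH17*-labelled libraries (log2 fold change 4.30, SE 0.77, adjusted p = 0.019). The counts of its neighbour *CYP71A13* went the other way, from 7.5 and 6.48 CPM to 1.59 and 1.22 CPM (log2 fold change -2.31, SE 0.35, adjusted p = 2.7e-05). WT had under 0.4 CPM of either gene. The last 500 bases of their transcripts are 91.4% identical, and the authors counted multiple alignments too, so a small part of the reads could have been shared. The call of *CYP71A12* was lost without *AtRH17*-labelled replicate 2 (log2 fold change 4.56) and kept in the other 3 fits. Its log2 fold change lay between 3.43 and 7.65 with 1 library left out. Between them, AT2G30760 and AT2G30766 fell by 2.31 and 2.01 on the log2 scale, which made a run of 4 called neighbours on chromosome 2 from 13099486 to 13111988. AT2G30766 overlaps both *CYP71A13* and AT2G30760 on the opposite strand. It shares 572 bases with *CYP71A13*, at the 3′ ends of both genes. In the *HRE1β*-labelled libraries *CYP71A13* had 203 and 200 counts and AT2G30766 had 1284 and 1393. In the *AtRH17*-labelled ones they had 45 and 30, and 343 and 268. Use of strand was not stated, so reads of AT2G30766 could have counted for *CYP71A13*. Whether the transcript of *CYP71A13* itself fell was not tested.

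AT1G26390 and AT1G26410 encode FAD-binding proteins of the berberine family. AT1G26390 had 151 and 72 counts in the *AtRH17*-labelled libraries and 2 and 0 in the *HRE1β*-labelled ones, and no more than 3 in WT. The ratio of the summed counts, scaled to the summed library sizes, was 122, with a 95% exact interval for counting error alone of 33.4 to 1013 (adjusted p = 1.6e-06). AT1G26410 rose from 0.148 and 0.162 CPM to 2.01 and 2.03 CPM (log2 fold change 3.66, SE 0.73, adjusted p = 0.00083). Their relatives AT1G26380 and AT1G26420, chosen after their values were seen, did not pass the test, at log2 fold changes of 0.63 (SE 0.66) and 0.51 (SE 0.52). AT1G26390 and AT1G26410 are 91.1% identical over 337 aligned bases at their 3′ ends.

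The indole glucosinolate methyltransferase genes *IGMT1*, *IGMT2* and *IGMT3* are neighbours on chromosome 1 and all were higher in the *AtRH17*-labelled libraries. *IGMT3* went from 6.17 and 8.52 CPM to 31.7 and 30.1 CPM, 4.19-fold higher (log2 fold change 2.07, SE 0.16, adjusted p = 1.3e-10). *IGMT1* went from 19.3 and 21.9 CPM to 48.6 and 52.6 CPM, and *IGMT2* from 1.77 and 5.28 CPM to 11.9 and 11.8 CPM. *IGMT4*, the next gene of the cluster and also chosen after its values were seen, stood at 77.1 and 107 CPM against 96.6 and 97.1 CPM and did not pass the test (log2 fold change 0.07, SE 0.11). The call of *IGMT2* was lost without *AtRH17*-labelled replicate 2 (log2 fold change 1.74). At their 3′ ends *IGMT3* and *IGMT2* are 92.3% identical over 428 aligned bases, and *IGMT3* and *IGMT4* 87.0% over 216. Multiple alignments were counted, so part of these reads could have been shared. In the list of glucosinolate genes, 0 of 18 members were higher and 6 lower at an adjusted p under 0.05 (6.45% of all genes were lower), with a median of -0.25. *CYP79F1*, which starts the aliphatic branch, fell by 1.55 on the log2 scale and was the only member past 2-fold. Its call was lost in 3 of the 4 fits with 1 library left out (log2 fold changes of -1.56 to -1.07), without *HRE1β*-labelled replicate 2 or either *AtRH17*-labelled replicate.

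The bases before the starts of these 3 genes are shown because of how their counts differed. Counts of the P450 neighbours went in opposite directions, and AT1G26390 was near 0 outside the *AtRH17*-labelled libraries. Reads of AT2G30766 could have counted for *CYP71A13*, and whether the transcript of *CYP71A13* itself fell was not tested. Each run holds the 250 bases upstream of the RefSeq gene start (TAIR10.1), written 5′ to 3′ on the strand of the gene. All 3 lie on the reverse strand, at chr1:9131780-9132029, chr2:13101372-13101621 and chr2:13111989-13112238. Capitals mark a W box (TTGACC or TTGACT, here on the opposite strand) in AT1G26390 and the letters CATGCA in the P450 genes.
AT1G26390: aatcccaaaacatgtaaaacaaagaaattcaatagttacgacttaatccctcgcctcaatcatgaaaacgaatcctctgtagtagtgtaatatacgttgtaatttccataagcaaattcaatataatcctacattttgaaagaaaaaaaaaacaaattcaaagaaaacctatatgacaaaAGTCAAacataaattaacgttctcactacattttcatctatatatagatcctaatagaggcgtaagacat
CYP71A12: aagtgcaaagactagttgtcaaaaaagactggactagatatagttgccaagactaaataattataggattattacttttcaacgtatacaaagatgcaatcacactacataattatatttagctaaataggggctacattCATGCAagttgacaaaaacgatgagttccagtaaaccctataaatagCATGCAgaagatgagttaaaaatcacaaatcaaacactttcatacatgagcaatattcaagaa
CYP71A13: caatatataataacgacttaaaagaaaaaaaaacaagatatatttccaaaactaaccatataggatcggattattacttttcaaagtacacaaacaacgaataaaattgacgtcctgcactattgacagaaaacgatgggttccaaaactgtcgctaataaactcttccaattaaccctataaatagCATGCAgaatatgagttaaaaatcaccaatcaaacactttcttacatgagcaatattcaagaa

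A further difference lay in genes of the maturing seed, which pack storage protein and oil into the embryo and protect it during drying. Of 17 listed seed storage and late embryogenesis genes, 11 passed the count filter, 8 of them were lower in the *AtRH17*-labelled libraries at 2-fold and an adjusted p under 0.05, and 0 were higher. The background for a lower call was 0.947%. The median of the 11 was -5.33 on the log2 scale, or -4.36 with the genes at the detection floor set to their bound. Members near 0 elsewhere passed the filter only through the *HRE1β*-labelled libraries, so their count is a description and no support for a direction. *CRA1*, a 12S globulin, stood at 26.47 and 9.11 CPM in these and at 0.141 and 0.0407 CPM in the *AtRH17*-labelled libraries (log2 fold change -7.49, SE 0.95, adjusted p = 0.0067), with 0 counts in WT.

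*OLEO2*, which coats oil bodies, had 174 and 78 counts against 3 and 0, a ratio of 76.8 (95% exact interval 26 to 375, adjusted p = 2.4e-06). The 2S albumin gene *SESA2* had no count in either *AtRH17*-labelled library and 4.55 and 0.551 CPM in the *HRE1β*-labelled ones, at least 22.4-fold higher against a floor of 3 counts per library. *CRU3* had 1012 and 295 counts against 0 and 1 but missed the threshold (adjusted p = 0.053). The seed genes *PER1* (a peroxiredoxin), *GEA6* (a late embryogenesis protein), *OLEO1*, *SESA5* and *M17* were called lower as well, at log2 fold changes between -5.84 and -2.79. *OLEO4* (-0.69) and *PAP85* (-0.36) did not pass the test.

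**Figure D3:**
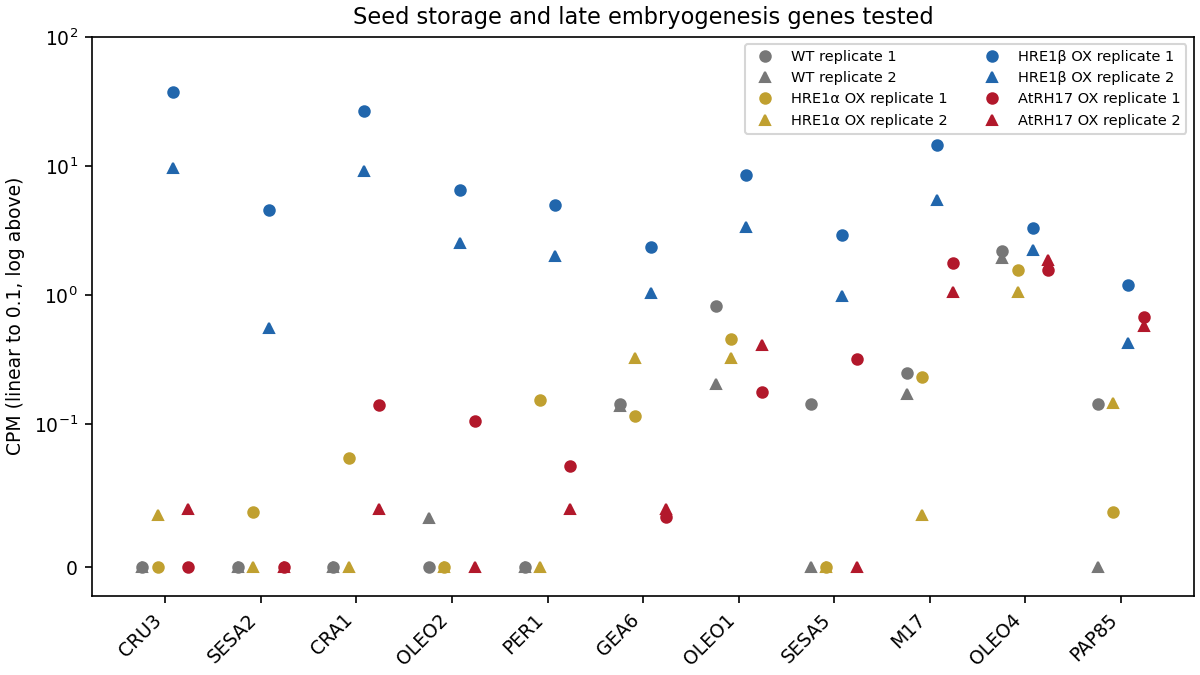
Points give the level of the 11 seed genes tested (CPM, linear up to 0.1 and logarithmic above) in each of the 8 libraries, with circles for replicate 1 and triangles for replicate 2. The blue points of the *HRE1β*-labelled libraries lie above all others for most genes, and replicate 1 lies above replicate 2 throughout.

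The 2 *HRE1β*-labelled libraries differed from each other in this group. Replicate 1 was above replicate 2 for all 8 genes called lower, by a median of 1.36 on the log2 scale, while for the 206 other genes called lower the median was 0.06. The summed level of the 17 seed genes was 122 and 38.0 CPM in the *HRE1β*-labelled, 5.04 and 4.07 CPM in the *AtRH17*-labelled and 3.73 and 2.53 CPM in the WT libraries. Without *HRE1β*-labelled replicate 1, 7 members were lower at an adjusted p under 0.05 and the median was -4.62. *SESA2* and *SESA5* lost their call without that library (log2 fold changes -6.95 and -2.53), *SESA5* also without *AtRH17*-labelled replicate 2 (-2.58), and *CRA1* without either *AtRH17*-labelled replicate (-8.62 and -6.93). Whether ungerminated seeds or seed coats were among the seedlings was not tested. Other genes near 0 in the *AtRH17*-labelled libraries included *NSP2*, a nitrile specifier (88 and 44 counts against 0 and 0, at least 20.5-fold), AT2G42560 (85 and 29 against 0 and 0, at least 17.9-fold) and AT5G35660 (365 and 144 against 0 and 1). One of a pair of rows named *EPR1*, which could not be assigned to a locus, had 88 and 39 counts against 0 and 0. The late embryogenesis gene AT3G17520 and the cupin gene AT2G28490 were low in the same way, at 92 and 33 counts against 1 and 0, and 113 and 39 against 3 and 0. AT2G28490 lost its call without *HRE1β*-labelled replicate 1 (log2 fold change -4.40).

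In all, 15 genes had 20 or more counts in both *HRE1β*-labelled libraries and 3 or fewer in both *AtRH17*-labelled ones, and 2 genes, AT1G26390 and AT4G05071, showed the reverse. AT4G05071 had 43 and 42 counts in the *AtRH17*-labelled libraries against 3 and 2, with 11 and 19 in WT. *BGLU28*, a beta-glucosidase gene, and *CNGC11* were among the 15 and were detected in WT at 11 and 7, and at 26 and 17 counts. *BGLU28* lost its call without any 1 of the 4 libraries (log2 fold changes of -3.42 to -3.16).

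The promoters of *SESA2* and *CRA1* are shown because they carry the letters CATGCA, the core of the RY element that seed regulators bind. The motif was added after the values were seen. They lie at chr4:13609091-13609340 (forward strand) and chr5:17758337-17758586 (reverse strand). Capitals mark CATGCA and, in *SESA2*, the G box CACGTG.
SESA2: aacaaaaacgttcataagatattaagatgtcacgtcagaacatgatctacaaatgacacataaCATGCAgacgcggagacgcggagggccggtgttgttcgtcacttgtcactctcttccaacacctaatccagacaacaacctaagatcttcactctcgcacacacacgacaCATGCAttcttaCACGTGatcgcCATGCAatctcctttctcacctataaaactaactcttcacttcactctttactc
CRA1: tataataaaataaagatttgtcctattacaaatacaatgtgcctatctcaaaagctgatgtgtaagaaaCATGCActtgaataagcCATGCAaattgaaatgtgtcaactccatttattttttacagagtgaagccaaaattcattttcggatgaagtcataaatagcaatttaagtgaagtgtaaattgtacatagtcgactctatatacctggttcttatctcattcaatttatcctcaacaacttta

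Within 250 bases before to 50 bases after the start, on either strand, CATGCA was found in 6 of the 8 seed genes called lower (75%), in 21.3% of 202 genes called lower, in 13% of 200 genes called higher and in 8.91% of 22099 tested genes with a window. CACGTG was found in 5 of the 8 (62.5%), in 11.9% of the genes called lower, 9.50% of those called higher and 8.23% of all. The overlapping motif ACGTGG was found in 16.3% of the genes called lower, 11.5% of those called higher and 10.3% of all. A W box was found in 41.0% of the genes called higher, 33.7% of those called lower and 32.3% of all. The GCC box GCCGCC, the motif that ethylene response factors bind, was found in 2.50%, 4.46% and 2.69%. The evening element core AAATATCT was found in 2.50%, 4.95% and 5.58%. These shares are descriptions with no test.

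Some genes of the low-oxygen response were higher in the *AtRH17*-labelled than in the *HRE1β*-labelled libraries. Of 30 members tested, 12 were higher, 0 lower and 18 not past an adjusted p of 0.05, against 7.42% of all genes higher. The median was 0.58 on the log2 scale, and 2 members passed 2-fold. *HB1*, the class 1 hemoglobin that removes nitric oxide when oxygen is low, stood at 121 and 92.5 CPM in the *HRE1β*-labelled and at 271 and 244 CPM in the *AtRH17*-labelled libraries (log2 fold change 1.27, SE 0.19, adjusted p = 0.0073). In WT it stood at 228 and 160 CPM. AT4G10265, annotated as a wound-responsive gene, went from 0.739 and 0.357 CPM to 1.41 and 1.59 CPM (log2 fold change 1.46, SE 0.44, adjusted p = 0.023), and its call was lost in 3 of the 4 fits with 1 library left out (log2 fold changes of 1.01 to 1.54), all but the one without *HRE1β*-labelled replicate 1.

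The oxygen-sensing plant cysteine oxidase genes AT5G15120 and AT5G39890 rose by 0.93 and 0.75 on the log2 scale. AT5G15120 was at 25.7 and 27.9 CPM in the *HRE1β*-labelled, at 53.5 and 48.5 CPM in the *AtRH17*-labelled and at 113 and 97.3 CPM in the WT libraries. *LBD41*, a transcription factor gene of the same response, went from 14.5 and 14.5 CPM to 23.0 and 19.5 CPM, with 62.8 and 70.3 CPM in WT. The fermentation gene *ADH1* did not pass the test (17.9 and 17 CPM against 66.3 and 36.8 CPM, adjusted p = 0.23), and stood at 50.1 and 16.0 CPM in WT. *SUS1* (-0.08) and the ethylene receptor gene *ETR2* (-0.38) did not pass either. With 1 library left out, 8 to 11 members were higher. Of the 5 group VII factors, *EBP* (the annotated name of *RAP2.3*) was higher by 0.29 (adjusted p = 0.013) and the other 4 did not pass the test.

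Of 16 flavonoid genes tested, 5 were higher and 0 lower at an adjusted p under 0.05 (7.42% of all genes were higher), 3 of them past 2-fold, with a median of 0.72. The other 11 did not pass the test. *MYB12*, which switches on flavonol synthesis, went from 2.44 and 2.24 CPM to 6.83 and 6.71 CPM (log2 fold change 1.53, SE 0.28, adjusted p = 0.00039). *F3H* (flavanone 3-hydroxylase) went from 22.4 and 28.1 CPM to 56.1 and 58.3 CPM (log2 fold change 1.18, SE 0.12, adjusted p = 2.3e-08), and the flavonol synthase gene *FLS1* from 16.4 and 18.9 CPM to 36.6 and 30.9 CPM. *F3H* overlaps AT3G51238 on the opposite strand, with counts within 5% of its own. *DFR*, the first gene of the anthocyanin branch, was called at 2.66-fold but lost its call in each of the 4 fits with 1 library left out (log2 fold changes of 1.04 to 1.79). The list had 3 members higher without *HRE1β*-labelled replicate 1 and 3 without *AtRH17*-labelled replicate 2.

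Among clock genes the difference lay in a few members. Of 27 tested, 5 were higher and 0 lower (7.42% and 6.45% of all genes), 3 of them past 2-fold, with a median of 0.08. *PRR9* and *PRR7*, pseudo-response regulators that repress the morning genes, went from 3.33 and 2.95 CPM to 11.4 and 15.3 CPM (4.25-fold, adjusted p = 2.4e-08) and from 8.43 and 7.75 CPM to 21.5 and 21.3 CPM (2.65-fold, adjusted p = 2.5e-08). *PRR9* and AT2G46670 are identical over 333 bases at their 3′ ends, so their reads cannot be told apart. *ASG4*, a homeodomain-like gene listed as *RVE3*, rose 2.94-fold, and its call was lost without *AtRH17*-labelled replicate 2 (log2 fold change 0.93). The morning genes *CCA1*, *LHY* and *RVE8* did not pass the test, at 0.15, -0.06 and 0.02 on the log2 scale. The time of harvest was not given for single libraries, so a difference in clock phase and one in harvest time cannot be told apart.

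Of 28 B-box factor genes tested, which link light and the clock to growth, 9 were higher and 4 lower at an adjusted p under 0.05. Over all genes the shares were 7.42% and 6.45%. The 3 B-box genes past 2-fold were all higher. *BBX30* went from 6.43 and 10.05 CPM to 14.6 and 21.0 CPM (adjusted p = 0.00047). With 1 library left out its log2 fold change lay between 0.82 and 1.46, so it did not always reach 2-fold. *BBX31* and *BBX10* were called too, but *BBX31* lost its call without *HRE1β*-labelled replicate 1 or *AtRH17*-labelled replicate 2 (log2 fold changes 1.08 and 0.82), and *BBX10* lost it without any 1 of the 4 libraries (2.33 to 3.59).

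Some genes of the iron deficiency response, by which roots take up more iron, were lower in the *AtRH17*-labelled libraries. Of 23 tested, 6 were lower and 1 higher at an adjusted p under 0.05, against 6.45% of all genes lower, with a median of -0.40, and 16 did not pass. *IRT1*, the root iron transporter, went from 10.3 and 9.04 CPM to 3.87 and 3.50 CPM (log2 fold change -1.39, SE 0.27, adjusted p = 0.0006). *FRO2*, the ferric reductase that works beside it, went from 5.47 and 3.92 CPM to 2.08 and 1.02 CPM (log2 fold change -1.58, SE 0.36, adjusted p = 0.0029). Its call was lost without *HRE1β*-labelled replicate 1 or *AtRH17*-labelled replicate 2 (log2 fold changes -1.33 and -1.17). AT2G30766, a small gene of the list, showed the largest fall, from 47.5 and 45.2 CPM to 12.1 and 10.9 CPM (adjusted p = 2.3e-11). WT lay below both lines for *IRT1* (0.284 and 0.479 CPM) and AT2G30766 (2.24 and 2.50 CPM). The member that rose was AT3G13610, a 2-oxoglutarate dioxygenase gene, from 9.91 and 10.7 CPM to 26.52 and 22.6 CPM (2.39-fold, adjusted p = 3.4e-05). The iron regulator *FRU* did not pass the test (-0.14), and of 4 ferritin genes 2 were higher and 0 lower.

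*FSD1*, the iron superoxide dismutase of the chloroplast, was the most abundant gene called higher. It stood at 406 and 443 CPM in the *HRE1β*-labelled and at 873 and 907 CPM in the *AtRH17*-labelled libraries (2.1-fold, adjusted p = 2.2e-08), below the 1752 and 1339 CPM of WT. The copper and zinc enzymes that do the same work, *CSD1* and *CSD2*, were named after their values were seen. They stood at 327 and 330 CPM against 324 and 344 CPM (log2 fold change 0.02, SE 0.18), and at 316 and 299 CPM against 276 and 301 CPM (-0.09, SE 0.15). The other abundant genes called higher were AT4G23680, a lipid transport family gene (2.40-fold), AT2G37750 (2.05-fold), AT5G44550, a CASP-like protein gene (2.01-fold) and *HB1*. Abundant genes called lower were *GER3*, a germin-like protein of the cell wall (910.4 and 924 CPM against 415 and 421 CPM, log2 fold change -1.13), and the glycine-rich protein gene AT4G29020 (311 and 349 CPM against 158 and 153 CPM, log2 fold change -1.09), beside 3 organelle genes.

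Single genes of the organelle genomes differed widely. Organelle transcripts mostly carry no long poly(A) tail, so an oligo-dT library catches them only in part. Of 29 mitochondrial genes tested, 9 were lower and 0 higher at an adjusted p under 0.05 (6.45% of all genes were lower), with a median of -0.49, and 4 passed 2-fold. *cox2*, a cytochrome c oxidase subunit, went from 33.0 and 31.5 CPM to 5.78 and 7.2 CPM (log2 fold change -2.32, SE 0.16, adjusted p = 4.7e-12), with WT at 9.70 and 9.61 CPM. The ribosomal RNA gene *rrn18* went from 341 and 349.8 CPM to 146 and 152 CPM, and *atp9* and *cob* fell by 1.32 and 1.39 on the log2 scale. The call of *cob* was lost without *AtRH17*-labelled replicate 2 (log2 fold change -1.19). With 1 library left out, 6 to 8 mitochondrial genes were lower.

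Of 84 chloroplast genes, 11 were lower and 6 higher (6.45% and 7.42% of all genes), with a median of -0.14. The 2 past 2-fold were *ndhA* and *ycf3*. *ndhA*, a subunit of the NADH dehydrogenase-like complex, went from 998 and 1181 CPM to 315 and 310.3 CPM (log2 fold change -1.80, SE 0.08, adjusted p = 6.4e-16). *ycf3*, which helps to assemble photosystem I, went from 648 and 685 CPM to 205 and 187 CPM (log2 fold change -1.76, SE 0.08, adjusted p = 8e-16). For both genes WT and the *HRE1α*-labelled libraries were close to the *AtRH17*-labelled level, with *ndhA* at 314 and 337 CPM and *ycf3* at 219 and 196 CPM in WT. Both are annotated in more than 1 part, as are 9 of the 84 chloroplast genes tested and *cox2* and 3 others of the mitochondrion. The other split chloroplast genes changed less: *petB* (-0.08), *clpP* (-0.13), *rpoC1* (-0.20) and *rps16* (0.08) did not pass the test, *atpF* was lower by 0.31 and *petD* was higher by 0.29. The split mitochondrial gene *nad7* fell by 0.99, from 29.2 and 27.0 CPM to 13.8 and 14.5 CPM, while *ccmFC* (-0.21) and *nad4* (-0.04) did not pass. The share of all counts on the chloroplast genome was 9.55% and 9.81% in the *HRE1β*-labelled and 10.2% and 9.79% in the *AtRH17*-labelled libraries. Of 53 nuclear photosystem and antenna genes, 19 were higher and 0 lower at an adjusted p under 0.05 (7.42% of all genes were higher), with 0 past 2-fold and a median of 0.16.

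**Figure D4:**
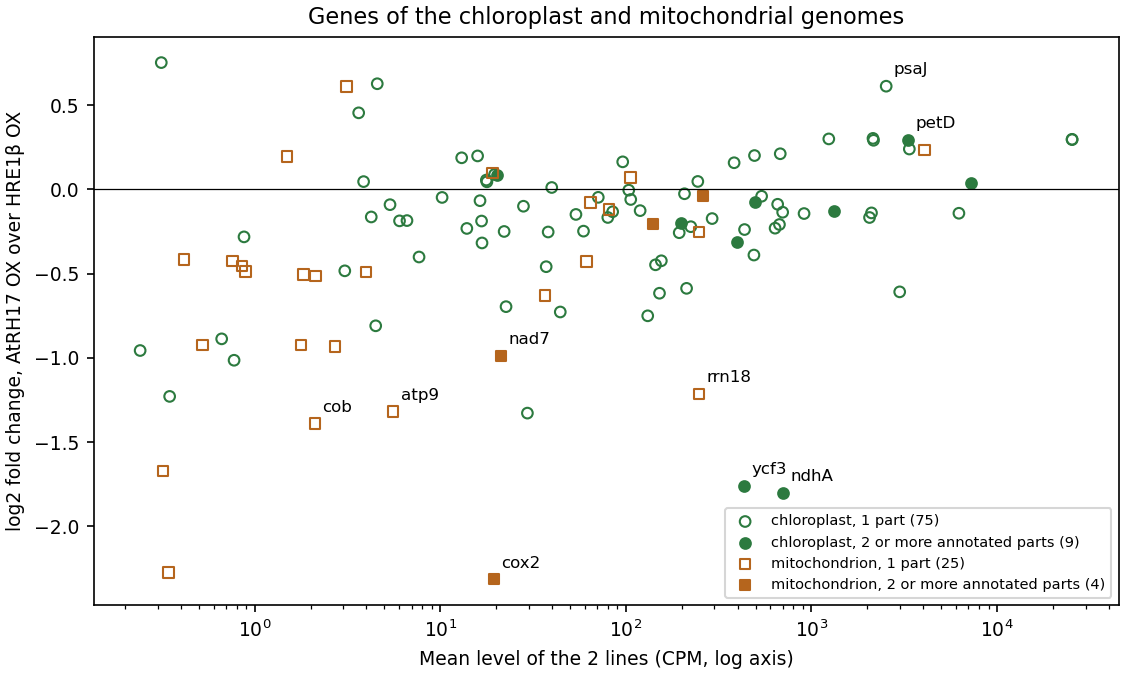
Each point is a gene of the chloroplast (circles) or mitochondrial genome (squares), with its mean level in the 2 lines (CPM, log axis) against the log2 fold change. Filled points are genes annotated in 2 or more parts. *ndhA*, *ycf3* and *cox2* lie lowest of the filled points, at -1.80, -1.76 and -2.32, and *nad7* lies between them and the rest, at -0.99.

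Other gene families differed in part. They were taken by symbol or synonym, so members known only by a locus name are not counted. Of 46 glutathione S-transferase genes tested, 11 were higher and 0 lower (7.42% of all genes were higher), with a median of 0.28. *GSTF7* went from 15.1 and 13.6 CPM to 38.4 and 37.0 CPM (2.63-fold, adjusted p = 4.6e-07). *GSTU12* passed 2-fold as well but lost its call in 3 of the 4 fits with 1 library left out, all but the one without *HRE1β*-labelled replicate 2 (log2 fold changes of 1.31 to 2.36). With *HRE1β*-labelled replicate 1 left out 6 of these genes were higher, and 7 with either *AtRH17*-labelled replicate left out. Of 44 arabinogalactan and fasciclin-like protein genes, 11 were lower and 4 higher (6.45% and 7.42% of all genes), none past 2-fold, with a median of -0.22. Of 13 extensin and proline-rich protein genes, 6 were lower and 2 higher. The extensin-like gene AT1G26240, described below, is not on that list. Among 12 class III peroxidases found by name, 5 were higher and 2 lower. AT5G64120 rose from 25.8 and 20.2 CPM to 74.4 and 62.3 CPM (adjusted p = 1.1e-10), *PER4* was called higher too, and *PRXCA* fell by 1.23 on the log2 scale. *PER4* lost its call without *HRE1β*-labelled replicate 2 or *AtRH17*-labelled replicate 2 (log2 fold changes 2.35 and 2.27).

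Few members of the hormone lists passed 2-fold. *WES1* and *DFL1*, GH3 genes whose enzymes attach amino acids to auxin, fell by 1.15 and 1.31 on the log2 scale (adjusted p = 0.00064 and 4.9e-09), while 13 of the 107 early auxin genes tested were higher and 3 lower at any fold (7.42% and 6.45% of all genes). *ARR7*, a type-A response regulator that damps cytokinin signalling, went from 21.8 and 28.4 CPM to 10.7 and 10.5 CPM (adjusted p = 8.3e-08), and of 9 such genes 2 were higher and 2 lower. *WRKY70*, a transcription factor of salicylic acid signalling, was 2.17-fold lower, at 8.77 and 8.02 CPM in the *AtRH17*-labelled libraries (adjusted p = 1.4e-05). It was 1 of 19 salicylic acid genes tested, of which 1 was higher and 1 lower. The member that was higher, *FMO1*, lost its call in each of the 4 fits with 1 library left out (log2 fold changes of 2.16 to 3.62). Of 24 jasmonate genes 1 was higher and 2 lower. No heat shock, phosphate starvation or carbon starvation gene passed the adjusted threshold by edgeR, out of 17, 17 and 10 tested.

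In larger families the shares were near or below those over all genes (7.42% higher and 6.45% lower). Of 167 cytochrome P450 genes tested, 12 were higher and 10 lower, of 93 MYB genes 5 and 5, and of 70 NAC genes 3 and 3. *NAC042*, a regulator of camalexin genes, went from 0.037 and 0.292 CPM to 1.34 and 1.26 CPM and lost its call in all fits with 1 library left out but the one without *HRE1β*-labelled replicate 2 (log2 fold changes of 2.14 to 2.95). Of 60 WRKY genes 0 were higher and 5 lower. Of 48 xyloglucan hydrolase and expansin genes 3 were higher and 4 lower. *XTH25* of this list was called lower, at 11 and 6 counts against 0 and 0, at least 2.64-fold against the floor. *XTH25* lost its call in all fits with 1 library left out but the one without *HRE1β*-labelled replicate 2 (log2 fold changes of -6.09 to -5.47). The wall-loosening gene *XTH31* went from 36.7 and 35.4 CPM to 81.4 and 83.6 CPM (2.29-fold, adjusted p = 3.2e-10). *CORI3*, a jasmonate-responsive aminotransferase gene, went from 8.502 and 7.52 CPM to 23.2 and 17.82 CPM (2.56-fold, adjusted p = 0.0042). *CORI3* lost its call without *HRE1β*-labelled replicate 2 (log2 fold change 1.27). Beside AT2G40700, 12 helicase genes with an RH name or synonym were tested, of which 1 was higher and 0 lower.

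**Figure D5:**
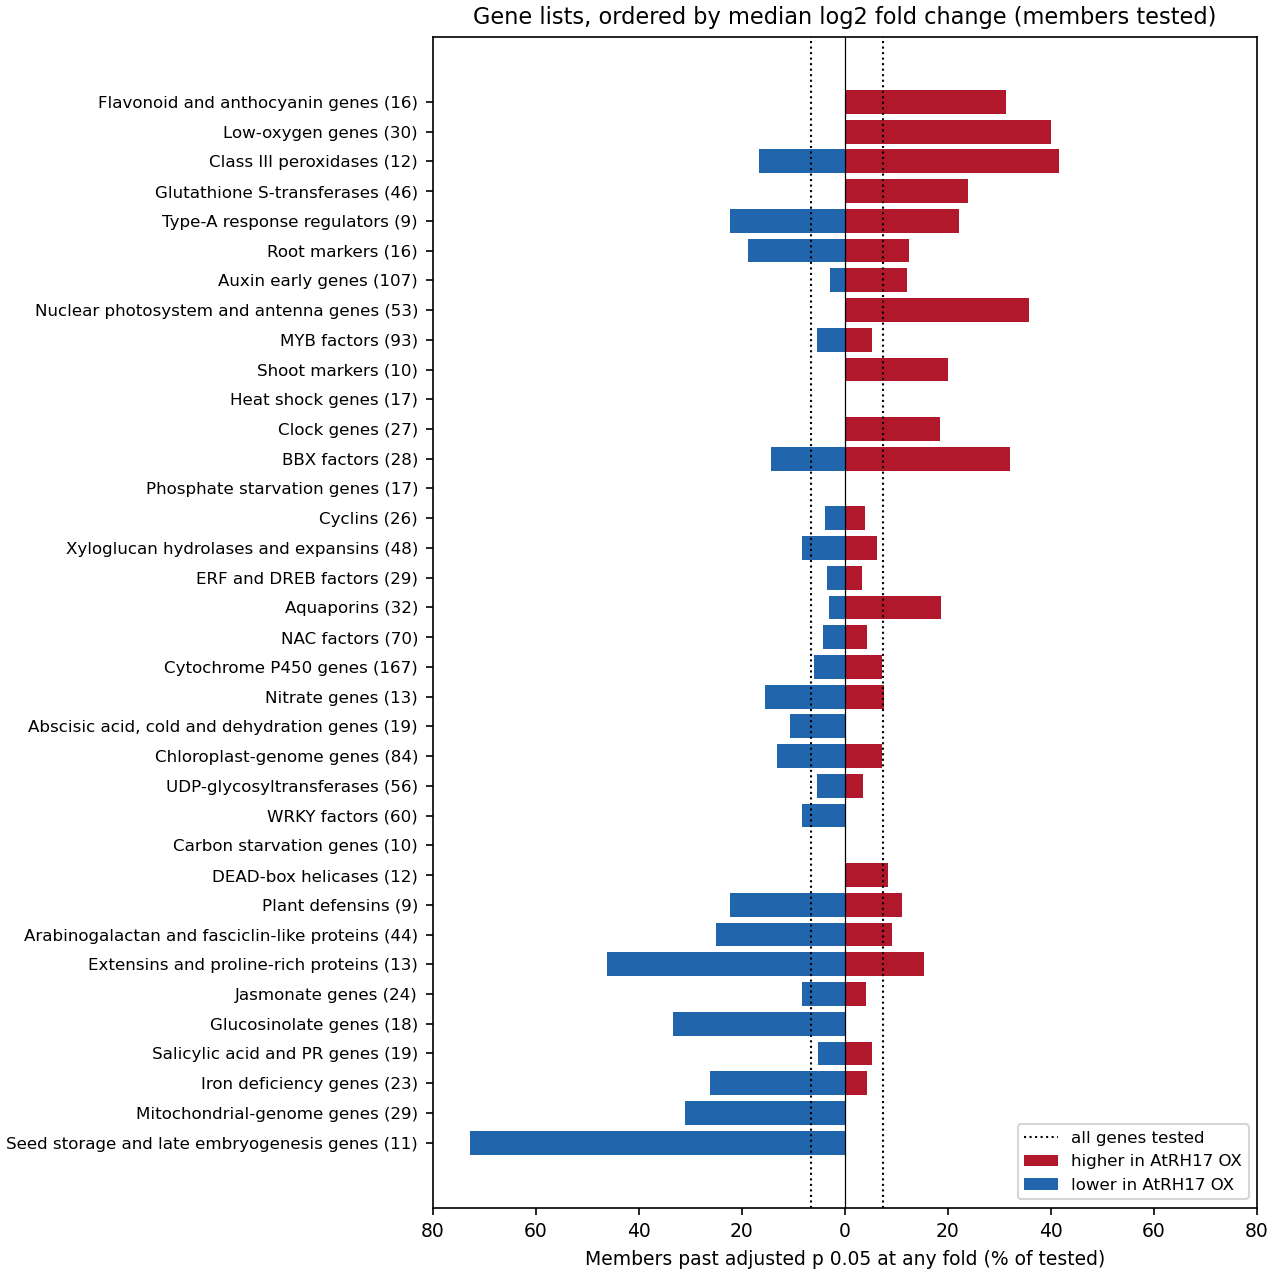
Bars give, for lists with 9 or more members tested, the share of these members that were higher (red, to the right) or lower (blue, to the left) in the *AtRH17*-labelled libraries at an adjusted p under 0.05, in percent, with lists ordered by their median log2 fold change and the number tested in brackets. Dotted lines mark the shares over all genes tested, 7.42% higher and 6.45% lower. Among the lists drawn, seed genes reach furthest to the left. Seed members near 0 elsewhere passed the count filter only through the *HRE1β*-labelled libraries, so their share supports no direction. Class III peroxidases (5 of 12, listed by gene name) and low-oxygen genes (12 of 30) reach furthest to the right.

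By position, the share of tested genes called at 2-fold lay between 1.44% on chromosome 5 and 2.37% on chromosome 4, with 1.66%, 2.17% and 1.78% on chromosomes 1, 2 and 3. The 9 runs of 3 or more neighbouring called genes held 37 of the 408 called genes with a position. Beside the runs above, 4 genes from AT1G53610 to AT1G53625 on chromosome 1 (20008996 to 20015038) were all higher, and AT1G53625 led them, from 4.66 and 7.68 CPM to 23.0 and 24.2 CPM (3.8-fold, adjusted p = 8.4e-07) and kept its call with any 1 library left out. The other 3 each lost it in 2 of the 4 fits: AT1G53610 without *HRE1β*-labelled replicate 2 or *AtRH17*-labelled replicate 1 (1.05 and 1.19 on the log2 scale), AT1G07917 without *HRE1β*-labelled replicate 1 or *AtRH17*-labelled replicate 2 (3.08 and 3.65) and AT1G53620 without the same libraries (1.44 and 1.79). On chromosome 3, AT3G21352 and AT3G00390 were higher and the adjoining AT3G21360, *BGLU19* and AT3G21380 lower, in 1 run of 5 genes from 7519865 to 7530686. AT3G21352 went from 0.444 and 0.357 CPM to 2.57 and 4.92 CPM, and *BGLU19*, a beta-glucosidase gene, from 12.2 and 6 CPM to 1.90 and 2.24 CPM. AT3G21360 and *BGLU19* share 527 bases at their 3′ ends on opposite strands, so part of their reads could have been shared. AT3G00390 and AT3G21380 lost their call without any 1 of the 4 libraries (1.27 to 2.25 and -3.55 to -2.33 on the log2 scale). The runs from AT3G29631, AT4G06795 and AT1G36622 were of higher genes, and overlapping genes in the first pair of runs share reads. AT3G29631 was the clearest of them, from 2.99 and 3.37 CPM to 11.7 and 10.2 CPM (3.44-fold, adjusted p = 7.2e-07). It and AT3G05845, AT4G06795 and AT4G06800 kept their call with any 1 library left out. AT3G29639 and AT1G36640 lost it without any 1 library (0.94 to 1.87 and 0.94 to 1.50 on the log2 scale). AT4G06805 and AT4G06810 lost it without *HRE1β*-labelled replicate 1 or *AtRH17*-labelled replicate 2 (0.90 to 0.99), and AT1G36622 and AT1G06983 in all fits but the one without *HRE1β*-labelled replicate 2 (0.92 to 1.28 and 0.88 to 1.32).

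The remaining genes with the largest rises had few reads. AT4G02795, a non-coding RNA gene, went from 1.15 and 0.713 CPM to 8.63 and 9.44 CPM (log2 fold change 3.29, SE 0.37, adjusted p = 2.7e-07) and kept its call with any 1 library left out. The extensin-like gene AT1G26240, the small nucleolar RNA gene AT1G06673 and the lipid recognition gene AT2G16005 stood between 1.22 and 2.99 CPM in the *AtRH17*-labelled libraries and under 0.3 CPM in the *HRE1β*-labelled ones. Each of these 3 lost its call in at least 1 fit with 1 library left out. AT1G26240 lost it without replicate 1 of either line (log2 fold changes 2.71 and 3.23), AT1G06673 without either *HRE1β*-labelled replicate (3.81 and 3.36) and AT2G16005 without *AtRH17*-labelled replicate 1 (2.22).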

How the data were processed

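QuantSeq 3′ libraries of whole seedlings were analysed from the counts that the authors deposited, 1 table per library. Per the labels and the methods of the study, the authors aligned reads with Bowtie2 to TAIR10 and counted unique and multiple alignments per gene with Bedtools coverage. Use of strand was not stated, and the deposited counts carry no normalization. The named edgeR step was not part of them. Each table holds 33028 rows. Of these, 32593 were assigned to a locus of RefSeq TAIR10.1 by name, and 435 with ambiguous names were not. The rows with ambiguous names held 3.68% to 4.09% of the counts.

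Genes were filtered with filterByExpr, scaled with TMM factors and tested with robust quasi-likelihood fits in edgeR 4.0.16 (R 4.3.3). All 8 libraries entered the fit and the contrast was *AtRH17* OX minus *HRE1β* OX. P-values were adjusted by Benjamini-Hochberg over all genes tested. CPM values are counts relative to the TMM-scaled library total, as edgeR's cpm gives them. A call needs a 2-fold change and an adjusted p under 0.05. In the alternative fits, a named gene counted as keeping its call where the adjusted p stayed under 0.05, at any fold. SE is the standard error of the log2 fold change. The detection floor is 3 counts per library, intervals cover counting error only, and with 2 libraries a line each library's value is given in place of a mean. The fit was tested on simulated counts.

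The members and lists were chosen with earlier results of these data known. Named genes were the overexpressed genes, list members called at 2-fold, the 12 largest changes per direction with a mean of at least 1 CPM and no overlap between the lines, and the 5 most abundant called genes per direction. Genes of runs and at the floor were added by position or count. Organelle lists were taken by chromosome, and the peroxiredoxin gene *PER1*, which the name pattern had put among the peroxidases, was left out there. Ratios with intervals were used in place of bounds for genes with 1 to 5 counts in a line. Alternatives were DESeq2 1.42.0, other scaling factors, other filters, only the 4 libraries, no organelle genes, a replicate block, leaving out each library, and a quantile-normalized equal-variance test on log2(CPM + 1). One promoter sequence is not reported here. The others were read from RefSeq TAIR10.1, whose nuclear coordinates are those of TAIR10. Figures were drawn with matplotlib 3.10.9.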

Additional observations from a re-analysis of the deposited data

How the results depend on the processing

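Counts at 2-fold and an adjusted p under 0.05 were 203 higher and 214 lower. Upper-quartile or RLE factors, no filter, at least 10 counts in each of the 4 libraries, no organelle genes and a fit of only the 4 libraries kept both counts within 1.5 times. DESeq2 called 140 genes lower, and the quantile-normalized equal-variance test called 2 higher and 1 lower (100 and 70 without adjustment). Leaving out 1 library gave 114 to 206 higher and 135 to 195 lower, with the lowest counts without *AtRH17*-labelled replicate 2. The replicate numbers only name samples (correlation of the deviations 0.03 over 2 pairs), and a replicate block gave 208 higher and 210 lower, with 401 of the 417 calls shared. The fall of AT2G40700 was -0.75 on the log2 scale in the quantile-normalized test and no longer passed. *CSD1* changed sign in that test (-0.094). With 1 library left out, log2 fold changes near 0 changed sign for *IGMT4* (-0.15 to 0.32), AT1G26380 (-0.16 to 2.65), AT1G26420 (-0.024 to 1.09) and *CSD1* (-0.022 to 0.060). Of 122 named genes that were called, 82 to 95 kept their call with 1 library left out, and 1 kept it in the quantile-normalized test. Keeping a call here rests on the adjusted p alone, at any fold. Some genes that kept it fell below 2-fold with 1 library left out. Among them were *BBX30*, *WES1*, *PRXCA*, AT2G37750 and AT5G44550, at log2 fold changes down to 0.82, -0.92, -0.95, 0.93 and 0.93. Depth limits the 73 called genes under 1 CPM.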
